A study of Mus musculus with 39 samples.

Results

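Glycolysis and its control by oxygen were followed through 34 genes, chosen by name for their roles in glucose uptake, the glycolytic steps, lactate export, oxygen sensing and the response to low oxygen. All 34 were found among the 39017 genes of the deposited count table. RNA sequencing measured them in tumour cells that had been sorted for YFP from mouse pancreatic tumours. Clones of tumour cells had been placed under the skin of C57BL/6 mice, and the untreated tumours were taken 3 weeks later. The labels class a clone by the T cell content of its tumours, and the study compared the classes. The low class held 18 libraries of 9 clones, the high class 14 libraries of 6 clones and the intermediate class 4 libraries of 2 clones, while 3 libraries of 3 clones carried no class. Clone names such as yfp_6499c3 and yfp_6499c4 were read as a parent tumour line followed by a clone number, which makes these sister clones, and the last number of a title is called the tumour number. Each clone is 1 expanded cell line, and whether its libraries came from different mice is not stated.

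Cells take up glucose through SLC2A transporters, trap it with hexokinase and break it down to pyruvate, which lactate dehydrogenase turns into lactate when mitochondria do not use it. Where oxygen is present, prolyl hydroxylases of the EGLN family mark the alpha subunits of the hypoxia-inducible factors for destruction. Where oxygen is scarce, these factors persist and raise transcription of transporters, glycolytic enzymes, angiogenic signals and of EGLN genes themselves. Pancreatic tumours are known as poorly perfused, and activity of the factors is set largely at the protein level, which RNA does not measure.

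Library totals ran from 7638130 to 103794674 counts. In 19 libraries of 18 clones 4 heart muscle genes (Mb, Myl2, Myh6 and Myh7) summed to between 152 and 4893 CPM, the usual unit in which a gene's counts are scaled to 1 common total for every library, and these are called heart-bearing. In the other 20 libraries, of 17 clones, the sum was at most 0.235 CPM, and these are called heart-free. Epithelial markers of the tumour (Krt8, Krt18, Krt19, Krt7, Epcam, Cdh1 and Sox9) summed to between 4524 and 12702 CPM in heart-free libraries. Macrophage markers ranged there from 94.1 to 3666 CPM, and Cd3e, a T cell marker, was at most 0.773 CPM. All results below are therefore given for heart-free libraries or for both kinds.

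Most of the 34 genes varied together from library to library. Over the 20 heart-free libraries, the median Pearson correlation of log2 CPM over the 561 pairs of members was 0.54, and 88.8% of pairs lay above 0. Over all pairs of the 10999 genes that averaged 5 CPM or more and had counts in each library, the median was 0.02, with 51.8% of pairs above 0. In the 19 heart-bearing libraries the members' median was 0.43. The points share a sequencing table and, for some, a clone, so these values describe the libraries and carry no test. With the mean of the other 33 members, 29 members had a correlation of at least 0.5. Adm, which encodes the vasodilating peptide adrenomedullin, stood first at 0.90, with Ldha, the muscle-type lactate dehydrogenase subunit, at 0.90, Bnip3, a mitophagy receptor, at 0.89, the aldolase Aldoa at 0.88 and the oxygen sensor Egln1 at 0.87. Hk1, Kdm3a and Car9 were between 0.33 and 0.43. Slc2a3, the GLUT3 glucose transporter, and Epas1, which encodes the alpha subunit HIF-2, ran against the rest at -0.22 and -0.31.

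**Figure D1:**
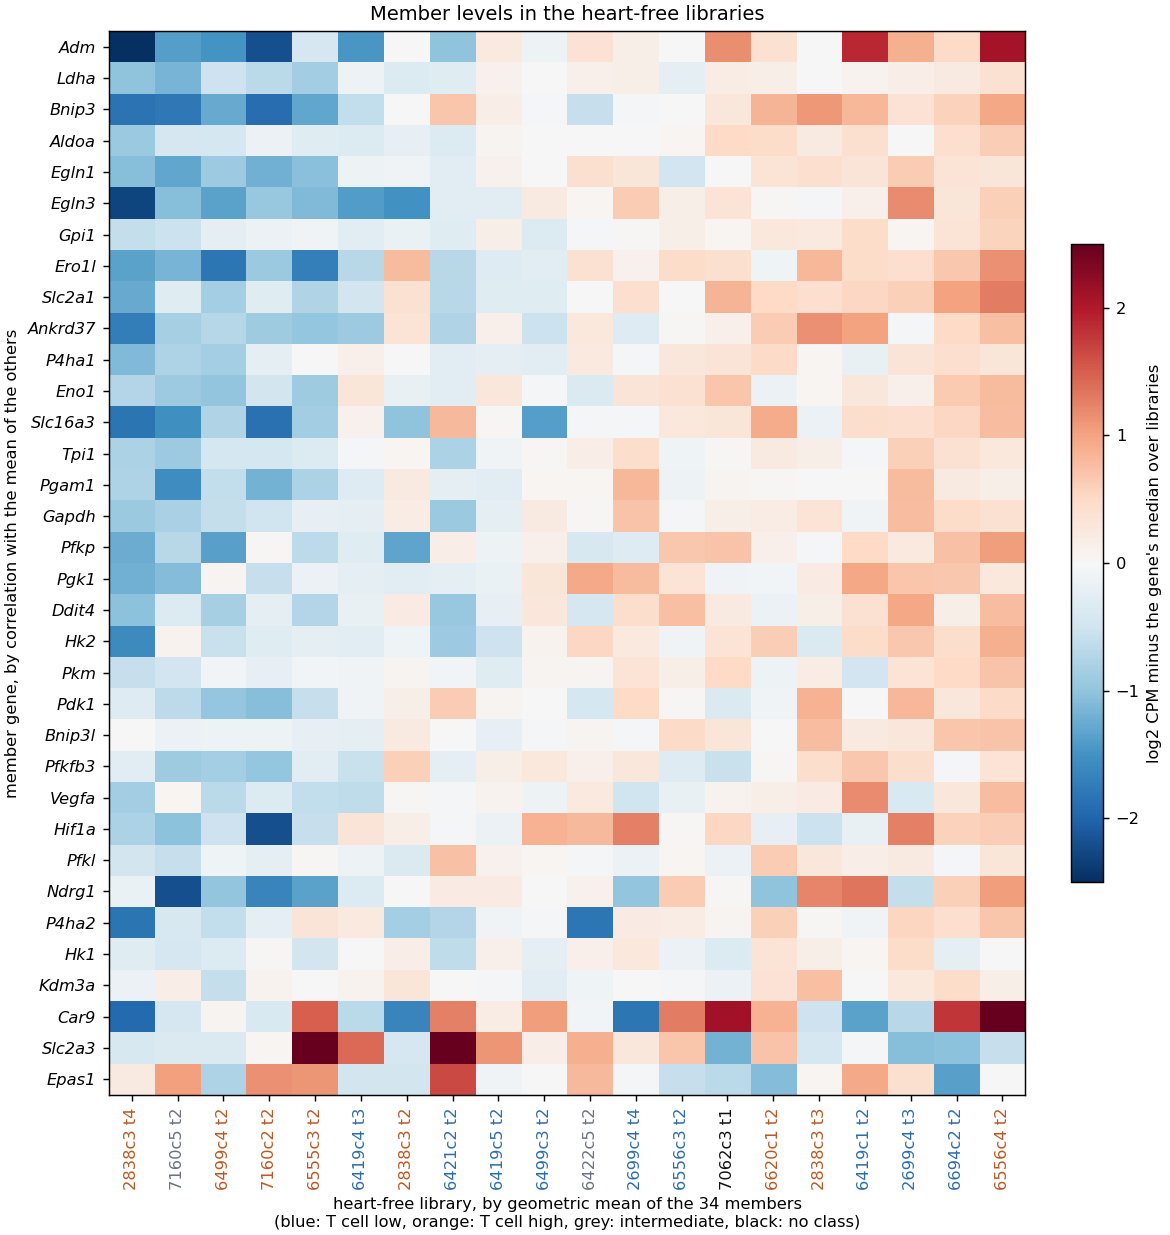
Log2 CPM of each member (rows) in each heart-free library (columns), less the member's median over the 20 libraries, with columns ordered by the geometric mean of the members and rows by correlation with the other members. Blue cells gather on the left from yfp_2838c3 tumour 4 and red cells on the right to yfp_6556c4 tumour 2, except in the bottom rows, Car9, Slc2a3 and Epas1.

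The geometric mean of the 34 members ran from 88.6 CPM in yfp_2838c3 tumour 4 to 279.8 CPM in yfp_6556c4 tumour 2, a 3.16-fold range, and both are T cell high clones. The former library held the lowest value of 14 members and the latter the highest value of 12. In heart-bearing libraries the geometric mean ran only from 145.9 to 261.8 CPM, a 1.79-fold range. The standard deviation of log2 CPM was larger in the heart-free libraries for 33 of the 34 members, with a median of 0.59 against 0.29. The members that varied most in heart-free libraries were Car9, a carbonic anhydrase of the cell surface, from 15.9 through a median of 60.9 to 345.7 CPM, and Adm, from 2.27 through 21.6 to 91.1 CPM. Bnip3l and Hk1 varied least, by 2.02-fold and 2.13-fold between the lowest and the highest library.

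Macrophage markers differed along the same order of heart-free libraries. The 3 libraries with the lowest geometric mean of the members had macrophage sums of 3132, 3666 and 2758 CPM, and the 3 with the highest had 236, 588.4 and 108.0 CPM. The next library up, yfp_7160c2 tumour 2, had a macrophage sum of 112.9 CPM and a geometric mean of 115.9 CPM. Epithelial markers did not follow that order: they summed to 5916, 8888 and 12702 CPM in the 3 lowest and to 7819, 5605 and 9855 CPM in the 3 highest, and the 12702 CPM of yfp_6499c4 tumour 2 was the highest of the heart-free libraries. Over the 20 libraries the Pearson correlation of the log2 sum with the mean log2 CPM of the members was -0.06 for epithelial and -0.56 for macrophage markers. It was -0.43 for leukocyte, -0.45 for neutrophil, -0.30 for fibroblast and -0.31 for endothelial markers. Over the 19 heart-bearing libraries it was 0.43 for epithelial, -0.24 for macrophage, -0.28 for leukocyte, -0.34 for neutrophil, -0.69 for fibroblast and -0.48 for endothelial markers. These values share each library's total and describe these libraries. The part of other cells in the members' levels was not tested, and in such bulk sorts fewer cells of a type and less RNA per cell cannot be told apart.

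The start regions of members that moved together were read for the core of the hypoxia response element, the short DNA word that hypoxia-inducible factors bind. The words searched were ACGTG and GCGTG, on either strand and with overlaps counted, in windows from 250 bases before to 50 bases after the start site given by RefSeq on GRCm38.p6. Such a window was found for 30 of the 34 members, and none for Slc2a3, Epas1, Bnip3l and Ndrg1. ACGTG was present in 18 of the 30 (60%) and in 19.6% of all 32851 windows of that length. GCGTG was present in 17 of the 30 (56.7%) and in 32.4% of all windows. Member windows also held a median of 24 CG dinucleotides against 7 over all windows, and both words contain CG. A match of letters does not show a bound site, and no binding was measured.

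Shown here are the upstream bases of Adm, Ldha, Bnip3 and Egln1, 4 of the 5 members most alike the rest, because they show how much the number of these words differed between genes whose levels moved together. The window of the fifth, Aldoa, held neither word and no CG. Each is written 5′ to 3′ on the strand of the gene, up to the start site or the first annotated exon, with the searched words in capitals.
Adm, chr7:110627407-110627656, plus strand: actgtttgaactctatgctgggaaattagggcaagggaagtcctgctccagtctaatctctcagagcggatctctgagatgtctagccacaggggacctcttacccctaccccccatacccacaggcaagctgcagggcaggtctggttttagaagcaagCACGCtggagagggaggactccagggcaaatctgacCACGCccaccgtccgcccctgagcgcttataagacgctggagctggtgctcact
Ldha, chr7:46845554-46845803, plus strand: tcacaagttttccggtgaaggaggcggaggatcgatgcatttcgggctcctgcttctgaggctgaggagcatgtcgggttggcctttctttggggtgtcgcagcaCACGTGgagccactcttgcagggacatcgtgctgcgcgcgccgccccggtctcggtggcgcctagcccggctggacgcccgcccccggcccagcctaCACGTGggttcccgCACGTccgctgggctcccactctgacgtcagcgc
Bnip3, chr7:138909520-138909756, minus strand: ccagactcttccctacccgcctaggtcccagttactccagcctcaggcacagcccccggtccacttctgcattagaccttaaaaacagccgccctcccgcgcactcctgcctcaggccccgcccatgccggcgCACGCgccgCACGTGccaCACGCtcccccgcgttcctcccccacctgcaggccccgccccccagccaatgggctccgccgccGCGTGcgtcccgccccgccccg
Egln1, chr8:124949325-124949504, minus strand: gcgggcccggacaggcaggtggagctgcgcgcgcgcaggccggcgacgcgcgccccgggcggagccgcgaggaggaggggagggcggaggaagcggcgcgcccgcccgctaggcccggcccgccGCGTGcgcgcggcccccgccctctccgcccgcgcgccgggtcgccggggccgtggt
The stretches differ in length, so matches were counted over the equal windows, which run past the printed end. The window of Ldha held 5 matches of ACGTG, counting both strands of a CACGTG word, and 2 of GCGTG. Bnip3 held 2 of ACGTG and 3 of GCGTG, Egln1 1 of each and Adm 2 of GCGTG alone.

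Levels between genes were compared in TPM, for which counts are divided by exon length and scaled to the same total in every library. In heart-free libraries the median TPM was highest for the pyruvate kinase gene Pkm, 1696 TPM (1138 to 2669), and for Gapdh, 1510 TPM (773.5 to 2565). Ldha, Tpi1 and Aldoa followed with medians of 1382, 1170 and 1157 TPM, and the ranges of all these neighbours overlapped. Near the other end, Epas1 had a median of 12.6 TPM and Slc2a3 of 0.54 TPM. In isozyme pairs, the GLUT1 transporter Slc2a1 exceeded Slc2a3 in TPM in 20 of 20 heart-free libraries, Pfkl exceeded Pfkp in 20, and Hk2 exceeded Hk1 in 19. The HIF-1 alpha gene Hif1a exceeded Epas1 in TPM in 19 of 20 heart-free but in 9 of 19 heart-bearing libraries. Pseudogenes nearly identical to Gapdh, Eno1, Pgam1, Ldha, Pgk1, Tpi1 and Aldoa can take or lend reads, so these levels are uncertain.

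No member passed the test for a difference between T cell high and low clones. In heart-free libraries, with counts summed over 6 high and 8 low clones, edgeR's quasi-likelihood test called 0 of 34 members at a Benjamini-Hochberg adjusted p under 0.05, against 0 of 15635 genes tested (0%). At an unadjusted p under 0.05 stood 0 members, against 2095 genes (13.4%). Without yfp_6556c4, a clone with 1 heart-free library, 10 members stood there, all 10 lower in high clones, against 16.5% of genes, and 0 passed the adjusted threshold. Without any other single clone the number was 0 to 2. The members' median log2 difference, high minus low, was -0.15 against 0.00 over all genes, with 10 of 34 above 0 against 49.6% of all genes. DESeq2 and limma also called 0 members, and DESeq2 called 299 of all genes. Over all libraries, with 6 high and 9 low clones, 0 of 34 members and 0 of 18551 genes passed (0%). Hif1a alone stood at an unadjusted p under 0.05 there, against 2176 genes (11.7%), and DESeq2 and limma called 0 members, with 123 genes called by DESeq2. Without yfp_6556c4, 11 members stood at an unadjusted p under 0.05, all lower in high clones, against 11.8% of genes, and without any other clone 1 to 6. In heart-bearing libraries alone 8 members stood there, all 8 lower in high clones, against 10.7% of genes. The heart genes summed there to 2553 to 4872 CPM in libraries of high clones and to 152 to 4893 CPM in those of low clones. The part of this unequal heart content was not tested. Over all libraries with 1 replicate per parent line and class 5 members stood at an unadjusted p under 0.05, all 5 lower, against 13.7% of genes. In the fit of all libraries with every clone in, the members' median was -0.21 against -0.01 over all genes, with 4 of 34 above 0.

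**Figure D2:**
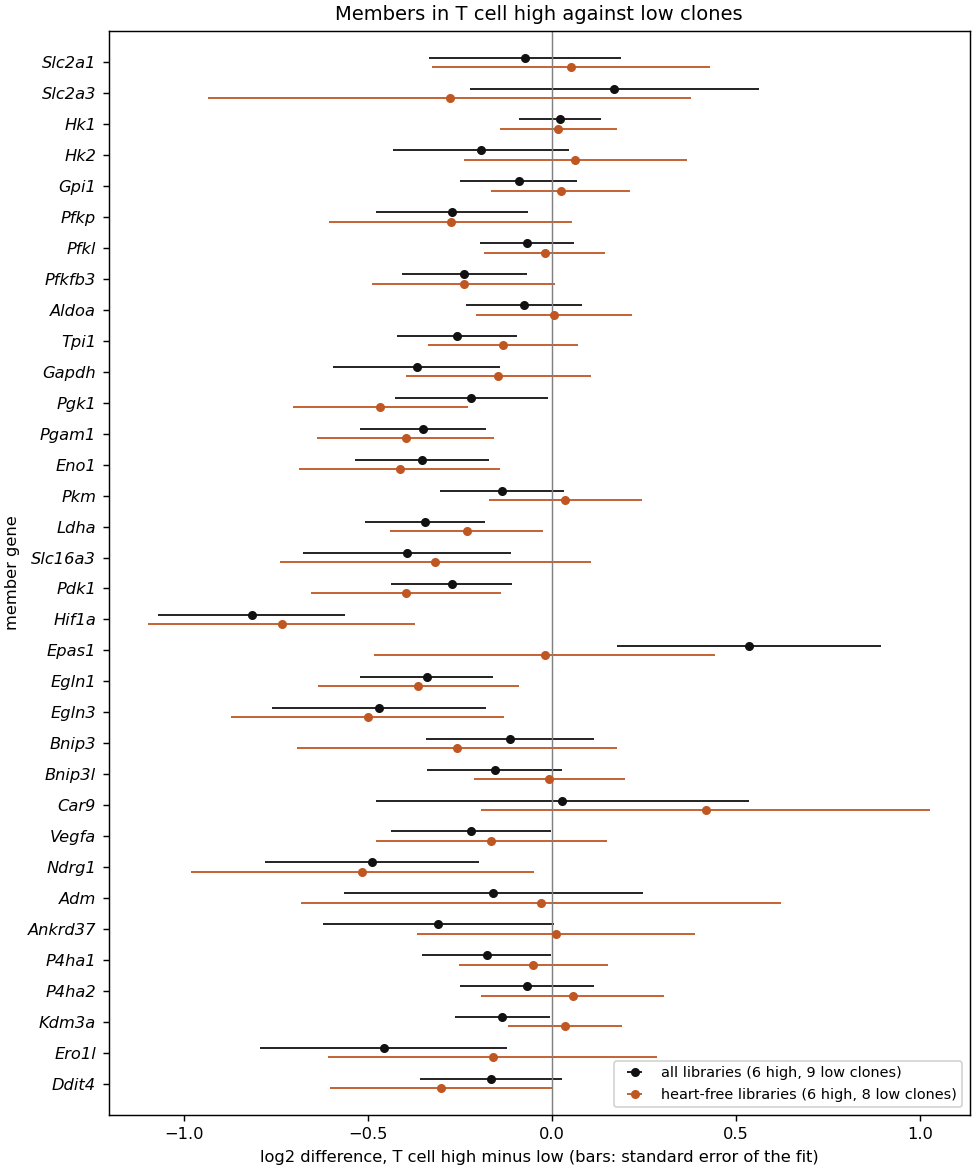
Log2 difference between T cell high and low clones for each member with the standard error of the fit, from the sums of all libraries (black) and of heart-free libraries (orange). Most points lie left of 0 and none passed the adjusted threshold.

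Levels of the glucose transporters overlapped between the classes. Slc2a1 in heart-free libraries ran from 150.4 CPM (yfp_6499c4) through a median of 244.7 to 655.2 CPM (yfp_6556c4) in high clones, and from 166.2 (yfp_6421c2) through 244.0 to 544.8 CPM (yfp_6694c2) in low clones. The ranges overlapped over nearly their full length, and the log2 difference was 0.05 ± 0.38 (standard error of the fit, 6 against 8 clones; edgeR adjusted p = 0.967). Slc2a3 ran from 0.769 through 1.04 to 6.96 CPM in high and from 0.568 through 1.57 to 8.91 CPM in low clones. In each class 1 clone, yfp_6555c3 and yfp_6421c2, stood above the rest, and the difference was -0.28 ± 0.66 (adjusted p = 0.881).

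Of the upper glycolytic steps, 8 genes from hexokinase to triosephosphate isomerase, 4 lay above 0 and none passed, with a median log2 difference of -0.01 in heart-free libraries. Of the 5 lower steps, 1 lay above 0, with a median of -0.40. Pgk1, the phosphoglycerate kinase that yields the first ATP of the pathway, ran from 298.1 (yfp_7160c2) through 411.5 to 535.7 CPM (yfp_6556c4) in high clones and from 372 (yfp_6419c4) through 557.4 to 870.8 CPM (yfp_6419c1) in low clones. Here 2 of 6 high clones lay below every low clone, and the log2 difference of -0.47 ± 0.24 did not pass (unadjusted p = 0.0682, adjusted p = 0.399). Pgam1, the phosphoglycerate mutase of the next step, ran from 62.1 through 109.4 to 155.1 CPM in high and from 112.3 through 134.3 to 245.4 CPM in low clones. Its 3 lowest clones were high clones, with a log2 difference of -0.40 ± 0.24 (adjusted p = 0.471).

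At the exit of the pathway, Ldha ran from 740.2 (yfp_6555c3) through 991.2 to 1749 CPM (yfp_6556c4) in high clones and from 1088 (yfp_6421c2) through 1391 to 1585 CPM (yfp_6694c2) in low clones. High clones lay at both ends, 4 of 6 below every low clone and 1 above, and the log2 difference was -0.23 ± 0.21 (adjusted p = 0.641). The lactate exporter Slc16a3 and Pdk1, the kinase that shuts pyruvate dehydrogenase, differed by -0.32 ± 0.42 and -0.40 ± 0.26 (adjusted p = 0.769 and 0.498).

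Hif1a, the oxygen-labile factor itself, came nearest to a separation. In high clones it ran from 38.4 (yfp_7160c2) through 128.4 to 273.3 CPM (yfp_6556c4), and in low clones from 155.7 (yfp_6419c1) through 201.7 to 424.5 CPM (yfp_2699c4). All high clones other than yfp_6556c4, 5 of 6, lay below every low clone, yet the log2 difference of -0.74 ± 0.36 had an unadjusted p of 0.0615 and an adjusted p of 0.392. Over all libraries it was -0.82 ± 0.25 (unadjusted p = 0.00551, adjusted p = 0.332). Fitted per library with the library kind as a block, it was -0.88 with an adjusted p of 0.0433, in a fit that counts libraries of 1 clone as replicates. Epas1 ran from 9.93 through 21 to 46.4 CPM in high and from 8.18 through 20.5 to 66.5 CPM in low clones, a difference of -0.02 ± 0.46 (adjusted p = 0.991). Both oxygen sensors, Egln1 and Egln3, lay below 0, at -0.36 ± 0.27 and -0.50 ± 0.37 (adjusted p = 0.572 and 0.564).

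Of the 12 hypoxia targets, 4 lay above 0 and none passed, with a median log2 difference of -0.04 in heart-free libraries. Vegfa, the angiogenic growth factor, ran from 292.6 through 398 to 795.7 CPM in high and from 301 through 442.2 to 1067 CPM in low clones, a difference of -0.17 ± 0.31 (adjusted p = 0.849). Car9 ran from 27.2 (yfp_2838c3) through 87.7 to 345.7 CPM (yfp_6556c4) in high and from 23.9 (yfp_6419c1) through 97.4 to 209.3 CPM (yfp_6694c2) in low clones. Within each class the highest Car9 clone stood several times above the lowest, and the difference of 0.42 ± 0.61 was smaller than its error (adjusted p = 0.796). Without yfp_6556c4 it was -0.27. Adm ran from 4.70 through 15.4 to 91.1 CPM in high and from 7.85 through 23.7 to 79.5 CPM in low clones, with a difference of -0.03 ± 0.65 (adjusted p = 0.990).

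The histone demethylase gene Kdm3a and the collagen prolyl hydroxylase gene P4ha2 were, with Car9, the members above 0 with the smallest p. Kdm3a ran from 77.3 through 126 to 151.5 CPM in high and from 95.1 through 116.4 to 160.9 CPM in low clones (log2 difference 0.04 ± 0.15, adjusted p = 0.943). P4ha2 ran from 45.8 through 74.3 to 115 CPM in high and from 42.8 through 74.8 to 94.9 CPM in low clones (0.06 ± 0.25, adjusted p = 0.944). In both genes the classes overlapped. Among genes averaging 5 CPM or more, high and low clones did not overlap for 0 of 33 members and for 38 of 11051 genes (0.344%). Beside these values, macrophage markers summed to 108.0 through 1379 to 2758 CPM in high and 94.1 through 321.7 to 1682 CPM in low clones, and leukocyte markers had medians of 251.9 and 84.0 CPM. Their part in the differences was not tested.

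**Figure D3:**
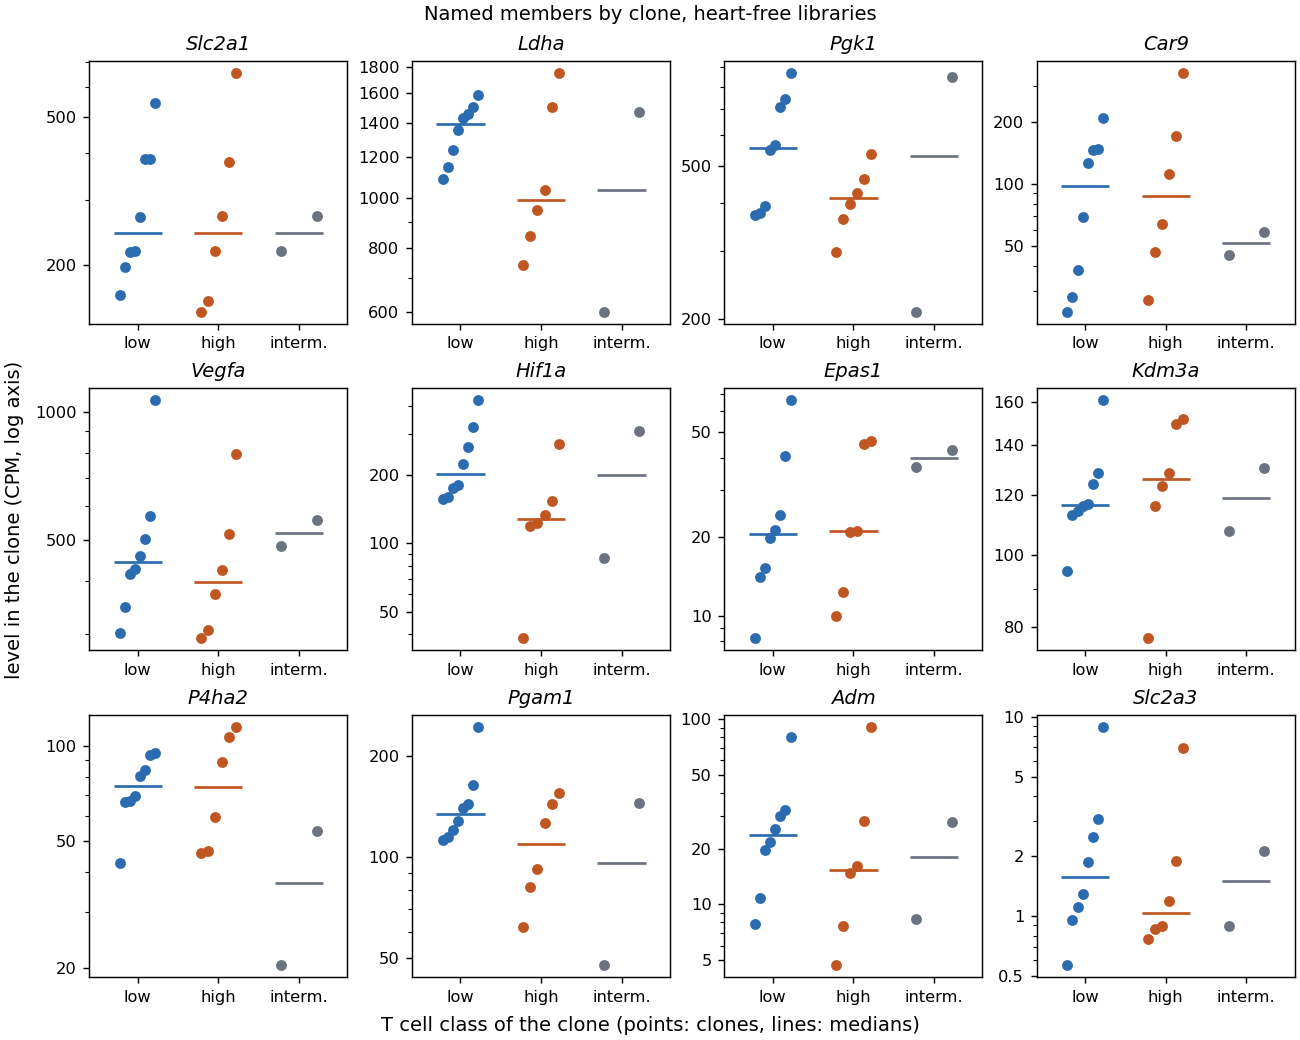
CPM on a log axis of 12 members in each clone, heart-free libraries, by T cell class, with a line at the median of each class. The classes overlap in every panel, and in the Hif1a panel 1 high clone lies within the range of the low clones while the other 5 lie below it.

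The intermediate clones lay apart from each other in these genes. In heart-free libraries yfp_6422c5 and yfp_7160c5 had 1471 and 602.1 CPM of Ldha, 849.9 and 208.9 CPM of Pgk1 and 311.3 and 86.7 CPM of Hif1a. For Ldha, Pgk1 and Hif1a, yfp_6422c5 was above the median of the low clones and yfp_7160c5 below the lowest low clone. With 1 heart-free library each, no error can be given. Macrophage markers summed to 144.3 CPM in yfp_6422c5 and to 3666 CPM in yfp_7160c5, and leukocyte markers to 25.9 and 551.8 CPM, and their part was not tested. The unclassed clone yfp_7062c3 had 1536 CPM of Ldha, 415.6 CPM of Pgk1 and 252.1 CPM of Hif1a.

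In heart-free libraries alone, sister clones of opposite class gave opposite directions in the 2 parent lines that held both. In tumour 2, the heart-free library, the high clone yfp_6499c4 lay below its low sister yfp_6499c3 for 32 of 34 members, with a median log2 difference of -0.61, and among genes at 5 CPM or more for 31 of 33 members against 56% of all genes. In the other line the high clone yfp_6556c4 lay above its low sister yfp_6556c3 for 32 of 34 members, with a median of 0.48, and for 32 of 33 at 5 CPM or more against 39% of all genes. Adm shows the contrast: it was 7.64 CPM in yfp_6499c4 against 19.7 CPM in its sister, and 91.1 CPM in yfp_6556c4 against 21.8 CPM in its sister. Slc2a1 was 150.4 against 219 CPM in the former pair and 655.2 against 269 CPM in the latter, high clone first. In tumour 2 macrophage markers lay the other way in both pairs. They summed to 2758 CPM in yfp_6499c4 against 1682 CPM in its sister and to 108.0 CPM in yfp_6556c4 against 442.1 CPM in its sister. In tumour 1 they summed to 1469 CPM in yfp_6499c4 against 2212 CPM in its sister, and to 1582 CPM in yfp_6556c4 against 1545 CPM in its sister. The part of these markers was not tested.

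These are single libraries, so no error stands behind them, and in tumour 1, the heart-bearing library, the medians were -0.27 and -0.04. In a fit of all 8 libraries with line and library kind as blocks, edgeR called 0 of 34 members and 0 of 16045 genes at an adjusted p under 0.05 (0%). At an unadjusted p under 0.05 it had 0 members against 2130 genes (13.3%), and DESeq2 called 0 members and 911 genes. The block for library kind did not level heart and liver transcripts between the classes. All 4 heart genes, with a median log2 difference of 3.90, and 5 of 6 liver genes, with a median of 3.66, stood at an unadjusted p under 0.05 in the edgeR fit. Both medians were higher in high clones, and the part of these transcripts was not tested. Without tumour 2 of yfp_6556c4, 8 members stood at an unadjusted p under 0.05, all 8 lower in high clones, against 19.9% of genes, and 0 passed the adjusted threshold. The difference between the lines, tested as an interaction of line and class, passed for 0 of 16045 genes. At an unadjusted p under 0.05 in that edgeR test stood 2 of 34 members, against 994 of the 16045 genes. They were Pfkfb3, which makes the activator of phosphofructokinase, at 0.0271 and Egln1 at 0.0444 (adjusted p = 0.805 and 0.806). In tumour 2 the high clone yfp_7160c2 was above its intermediate sister yfp_7160c5 for 23 of 34 members, and for 22 of 33 at 5 CPM or more against 50.6% of all genes. In tumour 1 it was above for 17 and below for 17. The median log2 difference of this pair in tumour 2 was 0.14. Macrophage markers summed there to 112.9 CPM in yfp_7160c2 against 3666 CPM in yfp_7160c5, and their part was not tested.

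Hif1a differed in direction between the 2 tumours of 1 pair. In tumour 1 the high clone yfp_6556c4 had 134.6 CPM of Hif1a against 302.1 CPM in its low sister, and in tumour 2 it had 273.3 against 180.5 CPM. The high clone yfp_6499c4 was lower than its sister in both, at 146.1 against 470.9 and 123.2 against 324.4 CPM. The tumour 1 libraries of sisters differed in heart and liver transcripts. Heart genes summed there to 4748 CPM in yfp_6556c4 against 568.3 CPM in its sister, and to 4718 CPM in yfp_6499c4 against 151.9 CPM in its sister. Liver genes summed to 14505 against 1772 CPM and to 15305 against 481.2 CPM in the same order. Their part in the Hif1a values was not tested.

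Libraries of 1 clone also lay far apart. The high clone yfp_2838c3 had 3 heart-free libraries, and tumour 4 was the lowest for 31 of 33 members at 5 CPM or more, against 22.3% of all 11051 genes. Adm stood at 21.4, 21.5 and 2.27 CPM in tumours 2, 3 and 4, and Bnip3 at 91.5, 192.3 and 25.1 CPM. Slc2a1 stood at 352.9, 358.8 and 112.3 CPM in the same order. Tumour 3 exceeded tumour 4 by a median of 2.24-fold over the members, a log2 ratio of 1.17 against -0.09 over all genes at 5 CPM or more. Only Slc2a3 and Epas1 were higher in tumour 4 than in tumour 3 among the 34. C1qa, a macrophage complement gene, stood at 25.1, 46.2 and 463 CPM in tumours 2, 3 and 4, and its part was not tested. In the low clone yfp_2699c4 the 2 heart-free libraries were close, with 31 of 34 members within 1.5-fold of each other.

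**Figure D4:**
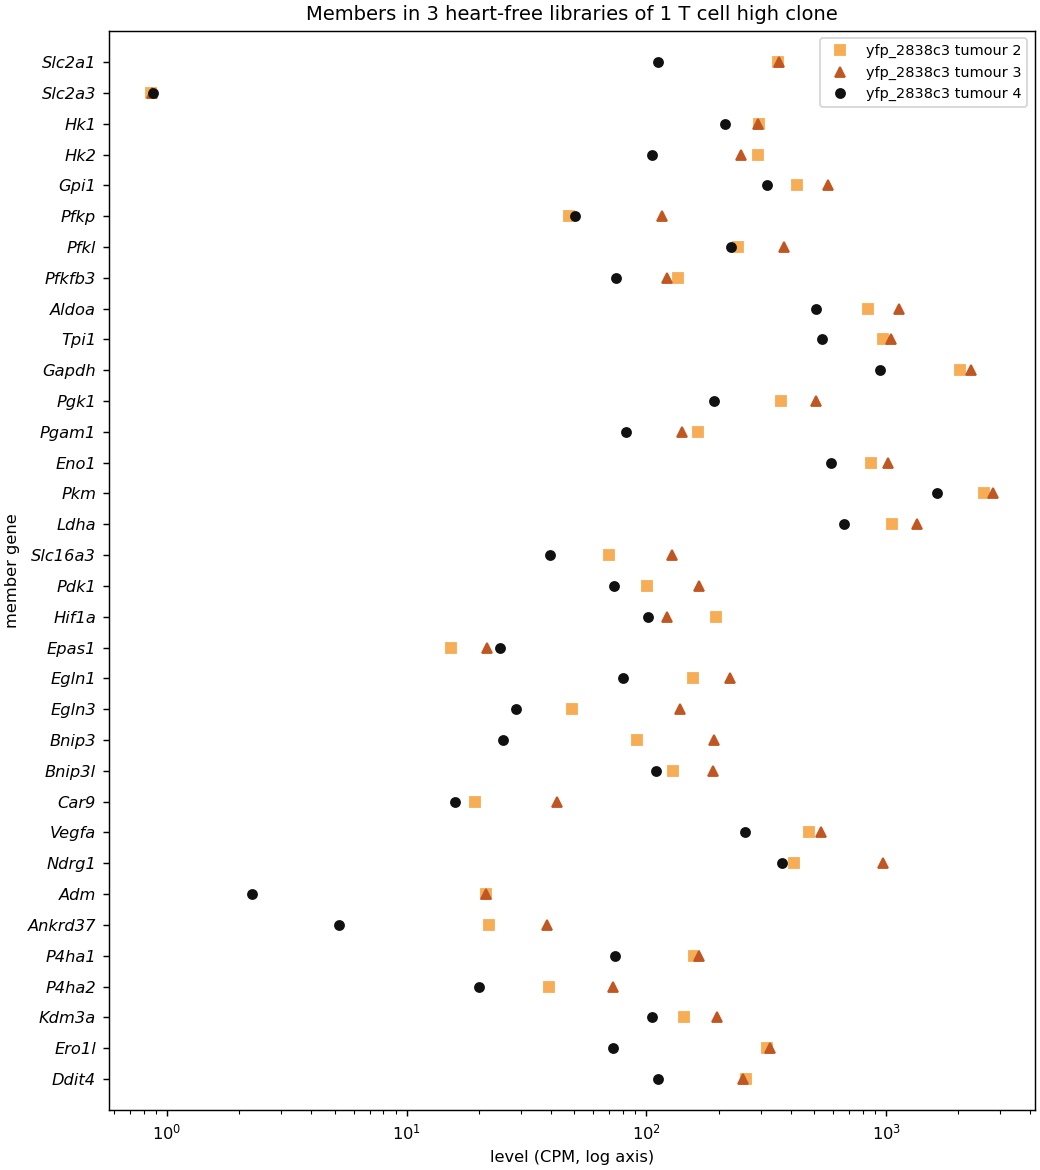
CPM on a log axis of each member in 3 heart-free libraries of the T cell high clone yfp_2838c3. Black points, tumour 4, lie left of both other tumours for nearly all members, with Adm at 2.27 CPM against 21.4 and 21.5.

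Only these clones had more than 1 heart-free library, and they were compared library by library, 3 against 2, so the p-values measure the spread between libraries of 1 clone. EdgeR called 1 of 34 members at an adjusted p under 0.05, against 2880 of 15782 genes (18.2%), a share of members below that of all genes. The member was Hif1a, at 196, 121.3 and 101.9 CPM in yfp_2838c3 and 422.2 and 427.1 CPM in yfp_2699c4. It was lower in yfp_2838c3 by a log2 difference of -1.65 ± 0.31 (adjusted p = 0.0217), with no overlap of the libraries. Hif1a did not pass without tumour 3 of yfp_2838c3 or without tumour 3 or tumour 4 of yfp_2699c4 (adjusted p = 0.0628, 0.131 and 0.148). In both latter fits 1 library of yfp_2699c4 was left, so the spread came from yfp_2838c3 alone. Egln3, another EGLN hydroxylase, differed by -1.94 ± 0.66 and Ndrg1, a stress-response gene, by 1.23 ± 0.49 without passing (adjusted p = 0.0934 and 0.136).

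The members differed in how they moved with the kind of library. In 15 clones with both kinds, with the clone as a block, 16 heart-bearing were compared with 18 heart-free libraries. In heart-bearing libraries 5 of 34 members were higher, against 33.2% of 16482 genes, and 4 were lower, against 26.5% of genes. The share of members called, 9 of 34, was thus below that of all genes.

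Slc2a3 and Epas1, the members that ran against the rest, differed most between the kinds. Slc2a3 had a median of 1.15 CPM (0.509 to 8.91) in heart-free and of 9.61 CPM (1.81 to 14.8) in heart-bearing libraries, a log2 difference of 2.48 ± 0.26 (edgeR adjusted p = 8.30e-08). Epas1 had a median of 21 CPM (8.18 to 66.5) in heart-free and of 144.1 CPM (23.4 to 196.2) in heart-bearing libraries, a difference of 2.26 ± 0.23 (adjusted p = 7.89e-08). Epas1 is known as a gene of blood vessel lining. The endothelial markers Pecam1, Cdh5, Plvap, Kdr, Tie1, Emcn and Vwf rose as well, 7 of 7, with sums of 4.63 to 220.6 CPM in heart-free and 32.3 to 297.5 CPM in heart-bearing libraries. All 6 leukocyte markers, all 7 fibroblast markers and 6 of 8 macrophage markers also rose. Liver genes rose as well, 6 of 6, with sums of 0.0803 to 241.2 CPM in heart-free and 481.2 to 15887 CPM in heart-bearing libraries, above the heart sum in every heart-bearing library. Of the skeletal muscle markers 6 of 6 tested rose, while 4 of 7 epithelial markers fell and none rose. The part of these other cells and tissues in the differences of Slc2a3, Epas1 and the other members called was not tested.

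Of the others, Bnip3 was higher by 0.97 ± 0.25, Pgk1 by 0.47 ± 0.15 and Pdk1 by 0.43 ± 0.13 (adjusted p = 0.00203, 0.0120 and 0.00778). The hexokinase Hk2 was lower by a log2 difference of -0.77 ± 0.17 (adjusted p = 0.000747), with medians of 317.8 CPM in heart-free and 170.2 CPM in heart-bearing libraries. Slc16a3 was lower by -0.48 ± 0.19, the collagen hydroxylase P4ha1 by -0.31 ± 0.13 and Pfkl by -0.26 ± 0.09 (adjusted p = 0.0385, 0.0395 and 0.0153). The other 25 members, among them Ldha, Gapdh, Hif1a, Vegfa and Car9, did not pass.

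**Figure D5:**
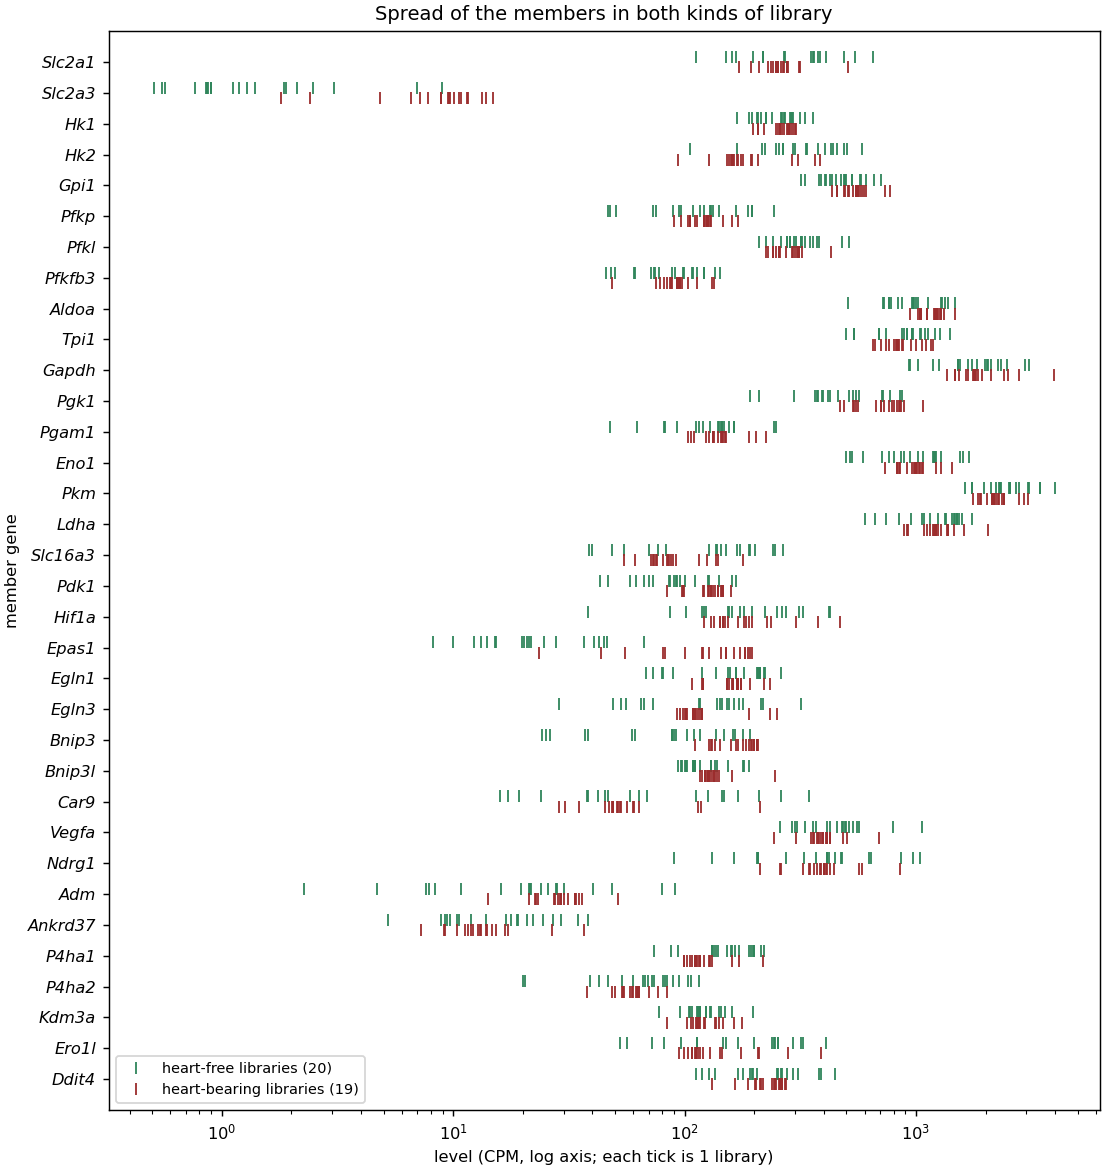
CPM on a log axis of each member in every library, 20 heart-free (green) and 19 heart-bearing (red). Slc2a3 and Epas1 are shifted to the right in red, and the red ticks of most other members span less than the green ones.

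Other genes of these pathways were counted by list. Between high and low clones, heart-free libraries, edgeR called 0 of 25 tested glycolysis isozymes and transporters outside the members. At an unadjusted p under 0.05 stood 6, against 13.4% of all genes, the share that also stands beside the other lists of this comparison. The smallest were Slc2a2, the GLUT2 transporter of liver and islets, at -2.53 ± 0.65 and Slc2a6, a GLUT6 transporter, at 2.01 ± 0.62 (adjusted p = 0.200 and 0.251). Of 40 further targets of the factors 0 passed, with 8 at an unadjusted p under 0.05, led by Ppfia4 at 1.80 ± 0.59 and the glycogen branching enzyme Gbe1 at -0.74 ± 0.26 (adjusted p = 0.259 and 0.281). Of 16 genes that pair with, modify or degrade the factors 0 passed, with 3 at an unadjusted p under 0.05. Ubqln4, a ubiquilin, stood at -0.40 ± 0.14 and Arnt, the shared partner of both alpha subunits, at -0.41 ± 0.17 (adjusted p = 0.273 and 0.344).

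In the routes that branch from glycolysis no gene passed either. Of 8 pentose phosphate genes 1 had an unadjusted p under 0.05, Pgls at 0.37 ± 0.11, followed by Pgd at -0.33 ± 0.16 (adjusted p = 0.225 and 0.380). Of 12 genes of mitochondrial pyruvate entry and of 4 tested gluconeogenic genes 0 had one. Pdp2, a pyruvate dehydrogenase phosphatase, was at -0.46 ± 0.22, Mpc2, a carrier subunit, at 0.35 ± 0.22, Fbp2 at 0.86 ± 0.56 and Pck2 at 0.18 ± 0.19 (adjusted p = 0.386, 0.491, 0.501 and 0.692).

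Between yfp_2838c3 and yfp_2699c4, 8 of 40 further targets passed in edgeR, 2 higher and 6 lower in yfp_2838c3, a share near the 18.2% of all genes. Of 12 genes of mitochondrial pyruvate entry 4 passed, and of 22 tested isozymes and transporters outside the members 4 did. Car12, a carbonic anhydrase, was higher by 3.07 ± 0.41 and Ak4, a mitochondrial adenylate kinase, lower by -5.86 ± 0.35 (adjusted p = 0.0107 and 0.00306). Of the 16 genes that pair with, modify or degrade the factors 2 passed, 1 higher and 1 lower, against the same 18.2% of all genes. The higher one was Arnt2, a relative of Arnt, at 6.40 ± 0.82 (adjusted p = 0.00952).

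The genes outside the list whose log2 CPM most resembled the mean of the members over the 20 heart-free libraries, leaving out Riken clones, predicted genes and pseudogenes and genes averaging under 5 CPM or at 0 in a library, were Higd1a, with a Pearson correlation of 0.93, Tiparp and Vldlr with 0.81, Pgm2 with 0.80, Pgf with 0.79, Grhpr and Hilpda with 0.78, Jmjd6 and Mxi1 with 0.77, and Arl4a with 0.75. Of these, Higd1a, Pgm2, Pgf, Hilpda, Jmjd6 and Mxi1 were on the list of further targets, 6 of 10, against 32 of the 10338 genes ranked. In heart-bearing libraries 2 of the 10 most alike were on that list, Pgm2 and Higd1a, against 36 of 11248 genes ranked. The libraries share clones and sequencing, and these values are a description of them.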

How the data were processed

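The deposited table held raw counts of reads per gene, as whole numbers, for 39017 genes in 39 libraries, 1 column each. The submitters' processing notes name STAR, featureCounts and the mm10 build. For versions, annotation and strand setting the sources used here give nothing, so reads of overlapping, antisense or nearly identical genes cannot be told apart.

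The members and lists were chosen with earlier results of these data known, including the division of libraries at a heart sum of 10 CPM. Named members were 7 set by name, for each direction the 3 lowest in p among heart-free class differences and the 3 with the widest range over clones. Pathway genes named were those that passed, otherwise the 2 per list with the smallest p, or a part of these where several passed.

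Levels are CPM of the library or clone total, and TPM used exon lengths of GENCODE M21 on GRCm38. Counts of a clone were summed, genes kept with filterByExpr, scaled by TMM and compared with edgeR's quasi-likelihood test (version 4.0.16, R 4.3.3), under Benjamini-Hochberg adjustment over all genes tested and a threshold of 0.05. Errors of log2 differences are standard errors of the fit. P-values measure the spread between these clone sums or libraries, and clones of 1 parent line may not be independent. Alternatives were DESeq2 1.42.0, limma 3.58.1, other scaling and filtering, blocks, and leaving out clones or libraries. The steps were tested on simulated data. Totals of heart-free libraries ran from 26866065 to 41683806 counts, so counting error is small beside the spread between libraries. It is larger for Slc2a3 than for any other member.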

Additional observations from a re-analysis of the deposited data

Results flagged for a closer look

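Among 24 groups of clones, the levels of 12 named members in the high and low class of heart-free libraries, 6 had 1 clone far above the others by Dixon's ratio of gap to range. Chance flags about 1 in 20 groups of genes not chosen for their spread, a rate that does not hold here, since Adm, Slc2a3 and Car9 were named for their wide range. The ratios were taken on CPM. On log2 CPM, with gaps at either end counted, 1 of the 24 groups had a value far from the others, and none of the 6 values below was far. Adm stood at 91.1 CPM in the high clone yfp_6556c4, against 4.70 to 28.1 CPM in the other 5. It stood at 79.5 CPM in the low clone yfp_6419c1, against 7.85 to 32.4 CPM in the other 7. In the same low clone Vegfa was 1067 CPM, against 301 to 569 CPM. Pgam1 was 245.4 CPM in the low clone yfp_2699c4, against 112.3 to 164 CPM. Slc2a3 was 6.96 CPM in the high clone yfp_6555c3, against 0.769 to 1.89 CPM. The 1 heart-free library of that clone had the highest fibroblast (17703 CPM), endothelial (220.6 CPM) and neutrophil (65.6 CPM) marker sums of the heart-free libraries, and their part was not tested. Slc2a3 was 8.91 CPM in the low clone yfp_6421c2, against 0.568 to 3.05 CPM.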

How the results depend on the processing

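No member passed between high and low clones under DESeq2, limma, other scaling, no filter or leaving out any clone, or with 1 replicate per parent line and class, in either set of libraries. Per library with kind as a block, 1 member passed, Hif1a (-0.88), and 127 genes. DESeq2 called 123 genes over all libraries, 299 over heart-free ones, 911 between sister clones and 4482 between yfp_2838c3 and yfp_2699c4, where it called 4 members. Leaving out clones gave 0 to 16 genes over all libraries, 16 without yfp_2838c3 and 1 without yfp_6421c2, and 0 to 37 over heart-free ones, 37 without yfp_2838c3 and 1 without yfp_6694c2. Between yfp_2838c3 and yfp_2699c4, leaving out a library gave 0 to 2 members and 51 to 3051 genes: 0 members and 75 or 51 genes without tumour 3 or 4 of yfp_2699c4. All 8 libraries of both clones with kind as a block gave 0 members and 1 gene. The cause of these changes was not tested. Leaving out yfp_2838c3 tumour 4, chosen after seeing the data, gave 0 members in both sets.

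With the tumour number as a replicate block, the class comparison gave 0 members and 8 genes, and the comparison of yfp_2838c3 with yfp_2699c4 gave 0 members and 0 genes. Between sister clones the number coincides with the library kind, already a block, and the paired fit gave 0 members. Same-numbered libraries of yfp_2838c3 and yfp_2699c4 deviated with correlations of 0.81, -0.75, 0.66 and 0.30 for numbers 1 to 4. Number 2 was heart-free in yfp_2838c3 but heart-bearing in yfp_2699c4. Number 1 of yfp_2838c3 with number 2 of yfp_2699c4, both heart-bearing, gave 0.79, and 3 with 4, both heart-free, gave 0.50. Since library kind and number are mixed here, these values cannot decide whether the number pairs the libraries.

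The direction of small heart-free class differences changed. Under limma Slc2a1 was -0.051, Epas1 0.024 and P4ha2 -0.012, and with 1 replicate per line and class Slc2a1 was -0.018 and Adm 0.12. Leaving out 1 clone or library gave -0.39 to 0.25 for Slc2a1, lowest without yfp_6556c4, -0.27 to 0.70 for Car9, lowest without yfp_6556c4, -0.47 to 0.10 for Vegfa and -1.06 to 0.42 for Adm, both highest without yfp_6419c1. The range was -0.26 to 0.33 for Epas1 and -1.15 to 0.38 for Slc2a3, both highest without yfp_6421c2, -0.018 to 0.13 for Kdm3a, lowest without yfp_2838c3, and -0.15 to 0.17 for P4ha2, lowest without yfp_6556c4. Hif1a (-1.11 to -0.54), Pgk1, Pgam1 and Ldha stayed below 0. Between tumour number 1 and other numbers, Slc16a3 (-0.42) and P4ha1 (-0.27) no longer passed. At 0.509 to 8.91 CPM in heart-free libraries, depth limits Slc2a3 most.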
